A study of Mus musculus with 18 samples.

Results

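A set of 10 genes that mark macrophages or their alternative activation were followed through a mouse kidney injury experiment: Emr1 (the former name of Adgre1), Csf1r, Csf1, Cd68, Lyz1, Lyz2, Mrc1, Retnla, Clec10a and Arg1. They were chosen by gene name, and all 10 were found among the 24062 genes of the deposited table. The table holds RPKM values (read counts scaled to gene length and library size) for 18 libraries of whole kidney cortex RNA from C57Bl/6 mice. One genotype was Klf15fl/fl (fl/fl below), mice whose Klf15 alleles carry the sites for deletion. The other was Klf15PTKO (PTKO below), which lack the transcription factor Klf15 in proximal tubule cells. Each genotype was sampled after the vehicle DMSO, after 2 weeks of AAI (AA 2wk), and after those 2 weeks followed by 2 weeks of remodeling time (AA 4wk). The later time therefore differs from the earlier one in both time and toxin withdrawal, which cannot be told apart. AAI is the usual abbreviation of aristolochic acid I, a plant toxin that injures proximal tubule cells. There were 3 libraries in each of the 6 groups, numbered 1 to 3. The labels do not name the Cre line, a Cre control, or the age and sex of the mice. They also do not say whether the libraries came from separate animals, so p-values measure the spread between these libraries, which may be in part technical.

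As background, macrophages depend on the receptor Csf1r, which is activated by the growth factor Csf1. Tubule cells are a known source of Csf1 in injured kidney. Emr1 encodes F4/80, the surface protein by which mouse macrophages are usually recognised, and Cd68 encodes a lysosomal membrane glycoprotein of phagocytes. Lyz2 and Lyz1 encode the closely related M and P lysozymes, of which M is the form of macrophages and neutrophils and P the form best known from Paneth cells of the gut. Alternative activation is the state that macrophages take on under interleukin-4 and interleukin-13, which act through the transcription factor Stat6. In mice it is commonly read from Mrc1 (the mannose receptor CD206), Retnla (the secreted protein RELMα), Clec10a (a galactose-binding lectin, CD301a) and Arg1 (arginase, which turns arginine into ornithine and urea).

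RefSeq (build GRCm38.p6) gave a promoter window of 250 bases before to 50 bases after the start for 6 of the 10 members. The lysozyme promoters are shown because the 2 genes behaved differently between the toxin times. Both lie on the minus strand of chromosome 10, Lyz2 at chr10:117277331-117282321 and Lyz1 at chr10:117287797-117292868 in GENCODE M21 coordinates, 5475 bases apart and with 4 exons each. The windows cover bases -149 to -50 from the RefSeq start, upstream of both the RefSeq and the GENCODE start, at chr10:117282322-117282421 for Lyz2 and chr10:117292918-117293017 for Lyz1. Capitals mark the bases that differ at the same offset.
Lyz2: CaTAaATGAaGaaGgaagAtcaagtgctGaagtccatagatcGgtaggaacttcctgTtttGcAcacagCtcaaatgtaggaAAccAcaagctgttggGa
Lyz1: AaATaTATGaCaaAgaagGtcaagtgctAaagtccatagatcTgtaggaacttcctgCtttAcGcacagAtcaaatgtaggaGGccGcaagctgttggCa
Compared without gaps, 80 of the 100 bases were alike. Both windows hold AGGAAGT, the core bound by the macrophage factor PU.1, on the other strand at base -100, as did 9.35% of all 32851 promoter windows of 300 bases. The coding sequences were alike at 425 of 447 bases, and 16.1% of the 50-base windows of the Lyz1 transcript also occur in Lyz2 (15.4% the other way). Reads from those windows cannot be told apart, and how they were assigned is not stated in any source used here.

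The promoters of Retnla and Csf1 are shown because these members, an effector of alternative activation and the growth factor, followed different courses: in fl/fl cortex Csf1 was high in every AA 2wk library, while Retnla ran from no read to 24.7 RPKM. The Retnla stretch is the plus strand of chr16:48842359-48842550, just before the gene (chr16:48842551-48844461, 4 exons). Capitals mark, in order, the PU.1 core, a STAT-type palindrome (TTCNNNNGAA, at base -145) and a C/EBP-type element (TTGCNNAA, at base -134). These bases count from the RefSeq start, which lies downstream of the GENCODE start where the stretch ends.
Retnla: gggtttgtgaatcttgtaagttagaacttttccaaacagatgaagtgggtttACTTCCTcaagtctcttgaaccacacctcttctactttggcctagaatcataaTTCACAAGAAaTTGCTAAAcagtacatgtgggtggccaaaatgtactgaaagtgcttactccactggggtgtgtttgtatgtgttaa
The Csf1 stretch is the minus strand of chr3:107760470-107760719, just before the gene (chr3:107741048-107760469, up to 9 exons in a transcript). Capitals mark an NF-kB-type element, GGGNNTTTCC on the other strand, at base -154.
Csf1: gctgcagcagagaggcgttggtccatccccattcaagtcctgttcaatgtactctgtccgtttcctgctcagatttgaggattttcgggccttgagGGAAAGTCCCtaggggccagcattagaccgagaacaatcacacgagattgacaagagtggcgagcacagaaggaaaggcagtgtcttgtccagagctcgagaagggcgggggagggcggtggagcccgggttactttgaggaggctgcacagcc
Both strands were searched. The STAT-type letters were in 6.95% of all windows, the C/EBP-type letters in 10.8% and the NF-kB-type letters in 1.63%. Among the 6 member windows, Retnla alone held the STAT-type letters and Csf1 alone the NF-kB-type letters. A match is only a match of letters.

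Whole read counts could be recovered from the steps of the RPKM values, and totals were 10.98M to 21.92M reads a library. Klf15 itself was at 53.0 to 65.5 RPKM in fl/fl and 28.4 to 32.6 RPKM in PTKO cortex after DMSO, without overlap. It was at 11.6 to 18.8 RPKM in fl/fl and 8.81 to 9.53 RPKM in PTKO at AA 4wk, and the groups overlapped at AA 2wk. The 2 AA 2wk libraries numbered 3 stood apart. With 12.5M and 12.4M reads they were the shallowest of their groups. Of the members, 9 of 10 in fl/fl and 10 of 10 in PTKO cortex were lowest there, and the share of all genes is not given here. Summed proximal tubule markers were at 3416 (fl/fl) and 4030 RPKM (PTKO) there, against 1511 to 1800 RPKM in the other AA 2wk libraries. Summed T cell markers were at 11.9 and 15.4 RPKM, against 54.7 to 109. The part of depth or tissue make-up in this was not tested. Gapdh was read 10 to 44 times in every library, although every cell uses it; whether genes with close copies are undercounted was not tested. The proximal tubule marker Lrp2 was present in every library, at 18.6 to 194 RPKM. Genes were tested if they reached 1 RPKM in 3 libraries. All 10 members passed, but Lyz1, Mrc1, Retnla, Clec10a and Arg1 would not have done so on the DMSO libraries alone. Arg1 would not have done so on the fl/fl libraries alone either.

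Most members were higher in toxin than in vehicle cortex of both genotypes. Of the 10 members, 8 were higher at AA 2wk than after DMSO in fl/fl cortex, and 9 were higher at AA 4wk, at an adjusted p under 0.05 over 13624 genes tested with limma. In PTKO cortex 10 of 10 were higher at both times. No member fell. The same calls were common among all genes: in fl/fl cortex 50.4% of genes were called higher at the earlier and 51.9% at the later time, and in PTKO cortex 45.9% and 55%. These counts include the 5 members that entered the test only through toxin libraries of either genotype, a filter that favours higher values there. The other 5 (Emr1, Csf1r, Csf1, Cd68 and Lyz2) also reached the level for testing after DMSO, and 5 of 5 were higher at both times in both genotypes. The median difference of those 5 in fl/fl cortex, on the log2(RPKM + 1) scale, was 3.85 at the earlier and 4.30 at the later time, against 0.33 and 0.35 for all genes. The PTKO medians were 3.57 and 4.20, against 0.29 and 0.40. The share of higher genes depended on scaling: in fl/fl cortex 80.5% of called genes were higher at the earlier time, but 50.2% after median-of-ratios scaling, which moved the median gene to -0.01. No member's difference from DMSO changed sign under either scaling tried (median-of-ratios or quantile). The comparisons with DMSO at the 2 times share their DMSO libraries. The titles of the DMSO libraries name no week, so these differences may hold time as well as toxin. Because cortex was measured whole, more macrophages and more RNA per macrophage cannot be told apart.

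**Figure D1:**
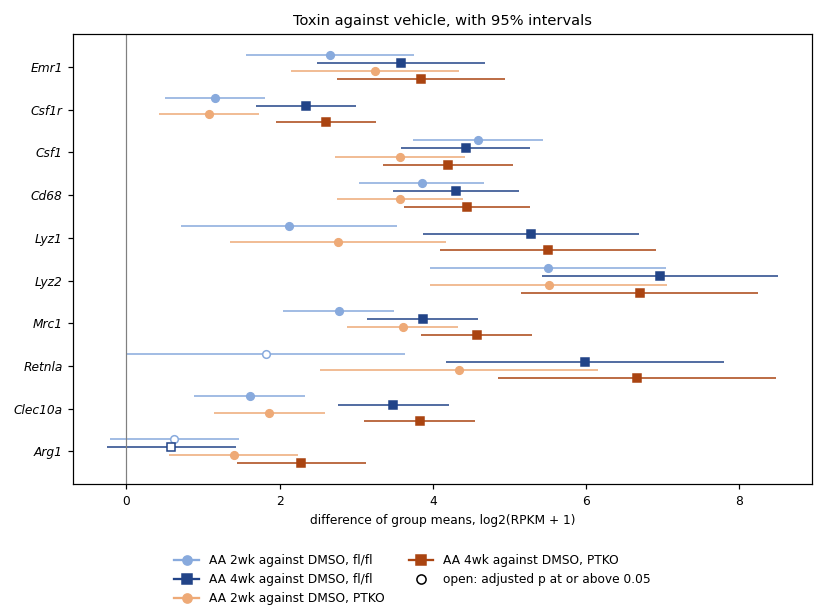
Difference of each member between toxin and vehicle (x axis, log2(RPKM + 1); bars are 95% intervals) in fl/fl and PTKO cortex at both toxin times. Filled points passed an adjusted p of 0.05; only Retnla at AA 2wk and Arg1 at both times, all in fl/fl cortex, are open.

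Among the identity genes, Emr1 (chr17:57358691-57483527, 23 exons) was low and even after DMSO. Its RPKM was 1.90, 1.84 and 1.79 in fl/fl and 2.28, 2.00 and 2.50 in PTKO libraries 1 to 3. The AA 2wk libraries were at 16.3, 38.1 and 7.57 in fl/fl and 31.2, 71.2 and 11.6 in PTKO cortex. By AA 4wk it stood at 39.2, 29.5 and 30.9 in fl/fl and 52.0, 49.2 and 37.3 in PTKO cortex. Every toxin library lay above every DMSO library, and the spread between libraries was widest at 2 weeks, where number 2 was highest and number 3 lowest in both genotypes. Against DMSO the difference in fl/fl cortex was 2.66 ± 0.51 (SE) with 2 weeks of toxin (adjusted p = 0.000516) and 3.58 ± 0.51 at the later time (adjusted p = 3.45e-05).

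The receptor Csf1r was the most abundant member after DMSO and had smaller differences from DMSO than Emr1 and Cd68. It was at 16.6, 22.7 and 14.2 RPKM in fl/fl and 20.3, 17.9 and 23.6 RPKM in PTKO libraries after DMSO. With 2 weeks of toxin it stood at 46.2, 63.4 and 22.1 in fl/fl and 55.2, 51.2 and 30.8 in PTKO cortex. The AA 4wk libraries were at 110, 86.2 and 85.3 in fl/fl and 126, 153 and 111 in PTKO cortex. The groups were ordered by time without overlap but for 1 library, the fl/fl AA 2wk library numbered 3, which lay within the DMSO range. Its difference from vehicle in fl/fl cortex was 1.16 ± 0.31 with 2 weeks of toxin (adjusted p = 0.00443) and 2.35 ± 0.31 at the later time (adjusted p = 1.51e-05). Within a library, Csf1r exceeded Emr1 by 2.44 to 3.06 on the log2(RPKM + 1) scale after DMSO and by at most 1.62 in the toxin libraries. In the PTKO AA 2wk library numbered 2, Emr1 exceeded Csf1r instead (-0.47).

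Cd68 (chr11:69664213-69666153, 6 exons) was at 4.13, 4.42 and 2.18 RPKM in fl/fl and 4.30, 4.34 and 6.03 RPKM in PTKO libraries after DMSO. Levels of AA 2wk libraries were 95.5, 95.5 and 27.6 in fl/fl and 85.0, 82.5 and 45.6 in PTKO cortex. At the later time it was 104, 79.1 and 79.5 in fl/fl and 117, 150 and 115 in PTKO cortex. Apart from the libraries numbered 3, Cd68 in fl/fl cortex was as high at 2 weeks as at 4 weeks, and its change between those times did not pass in either genotype. The difference from DMSO was 3.85 ± 0.38 with 2 weeks of toxin (adjusted p = 3.01e-06) and 4.30 ± 0.38 at the later time (adjusted p = 6.95e-07) in fl/fl cortex.

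The growth factor Csf1 followed another course. It was at 2.52, 3.65 and 1.66 RPKM in fl/fl and 2.64, 3.02 and 3.24 RPKM in PTKO libraries after DMSO. After toxin for 2 weeks it reached 73.6, 95.5 and 83.6 in fl/fl and 65.6, 86.0 and 17.1 in PTKO cortex. Levels of AA 4wk libraries were 66.3, 71.6 and 87.3 in fl/fl and 69.8, 75.8 and 69.6 in PTKO cortex. In fl/fl cortex it was thus already at its 4-week level at 2 weeks in all 3 libraries, including number 3, where Lyz2 was at 105 RPKM and Retnla had no read. The PTKO library numbered 3 stood apart at 17.1 RPKM. The difference from DMSO in fl/fl cortex was 4.59 ± 0.40 at AA 2wk (adjusted p = 9.02e-07), which ranked 14 of 13624 genes from the largest rise, and 4.43 ± 0.40 at AA 4wk (adjusted p = 7.53e-07). Its change from AA 2wk to AA 4wk in fl/fl cortex was -0.17 ± 0.40 (95% interval -1.01 to 0.68, adjusted p = 0.881).

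Set against its receptor, Csf1 stood at 0.117 to 0.169 RPKM per RPKM of Csf1r after DMSO. The ratio was 1.59, 1.51 and 3.78 in fl/fl and 1.19, 1.68 and 0.555 in PTKO libraries at AA 2wk, and lay between 0.495 and 1.02 in the AA 4wk libraries. In fl/fl cortex the ratio at AA 2wk was above that at AA 4wk without overlap. In PTKO cortex the library numbered 3 overlapped the AA 4wk range. These ratios are a description and were not tested.

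Lyz2 was the most abundant member in every toxin group. It was at 7.45, 14.4 and 4.42 RPKM in fl/fl and 18.99, 9.16 and 24.8 RPKM in PTKO libraries after DMSO. The AA 2wk libraries were at 457, 1350 and 105 in fl/fl and 1153, 1244 and 344 in PTKO cortex. By AA 4wk it stood at 1424, 874 and 1102 in fl/fl and 1842, 2238 and 1414 in PTKO cortex. The lowest toxin library was still above the highest DMSO library. Against DMSO the difference in fl/fl cortex was 5.50 ± 0.72 with 2 weeks of toxin (adjusted p = 2.64e-05) and 6.96 ± 0.72 at the later time (adjusted p = 2.35e-06), ranks 6 and 2 of 13624 genes.

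Its neighbour Lyz1 was nearly unread after DMSO. There it had 0, 1 and 1 reads in fl/fl and 2, 0 and 2 reads in PTKO libraries. With 2 weeks of toxin it stood at 3.64, 14.5 and 0.254 RPKM in fl/fl and 10.2, 9.74 and 2.10 RPKM in PTKO cortex. The AA 4wk libraries were at 47.5, 27.8 and 44.6 in fl/fl and 37.7, 69.3 and 40.2 in PTKO cortex. All 6 AA 4wk libraries lay above all 6 AA 2wk libraries. Its difference from vehicle in fl/fl cortex was 2.12 ± 0.66 with 2 weeks of toxin (adjusted p = 0.0120) and 5.28 ± 0.66 at the later time (adjusted p = 1.11e-05). The 2-week call rests on the fl/fl library numbered 2, without which the adjusted p was 0.0688, and it was lost when only the groups compared were fitted (adjusted p = 0.0700).

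The ratio of the lysozymes, which was not tested, differed between the toxin times. Per 100 RPKM of Lyz2, Lyz1 was at 0.795, 1.07 and 0.241 RPKM in fl/fl and 0.888, 0.783 and 0.611 RPKM in PTKO libraries at AA 2wk. At the later time it was 3.34, 3.18 and 4.05 in fl/fl and 2.05, 3.10 and 2.84 in PTKO libraries. The times did not overlap in either genotype. Lyz2 itself was similar in the fl/fl library numbered 2 at AA 2wk (1350 RPKM) and number 1 at AA 4wk (1424 RPKM), where the ratios were 1.07 and 3.34. The ratio after DMSO rests on 2 reads of Lyz1 at most and says little.

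Of the alternative activation genes, Mrc1 (chr2:14229392-14332057, 30 exons) was at 0.615, 1.17 and 0.558 RPKM in fl/fl and 0.575, 0.673 and 0.644 RPKM in PTKO libraries after DMSO. Levels of AA 2wk libraries were 8.91, 24.5 and 5.89 in fl/fl and 20.1, 21.7 and 15.3 in PTKO cortex. Levels of AA 4wk libraries were 27.5, 23.2 and 23.6 in fl/fl and 41.1, 46.5 and 28.0 in PTKO cortex. Toxin and DMSO libraries did not overlap. The difference from DMSO was 2.77 ± 0.34 with 2 weeks of toxin (adjusted p = 1.51e-05) and 3.87 ± 0.34 at the later time (adjusted p = 6.10e-07) in fl/fl cortex. Within a library Mrc1 was below Emr1 by a median of 0.84 and 1.06 on the log2(RPKM + 1) scale after DMSO in fl/fl and PTKO cortex, and by 0.38 and 0.33 at AA 4wk.

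Clec10a (chr11:70156197-70170834, up to 10 exons) was at 0.443, 0.650 and 0.0842 RPKM in fl/fl and 0.182, 0.217 and 0.419 RPKM in PTKO libraries after DMSO. After toxin for 2 weeks it reached 3.53, 6.82 and 1.07 in fl/fl and 4.71, 3.85 and 2.58 in PTKO cortex. By AA 4wk it stood at 13.1, 15.7 and 14.2 in fl/fl and 16.0, 20.3 and 15.2 in PTKO cortex. As for Lyz1, all AA 4wk libraries lay above all AA 2wk libraries, and the AA 4wk libraries were close to each other. Against DMSO the difference was 1.61 ± 0.34 with 2 weeks of toxin (adjusted p = 0.000957) and 3.48 ± 0.34 at the later time (adjusted p = 1.43e-06) in fl/fl cortex. Per 100 RPKM of Csf1r there were 0.593 to 2.87 RPKM of Clec10a after DMSO, 4.83 to 10.8 with 2 weeks of toxin and 11.9 to 18.3 at the later time, without overlap; this was not tested.

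Retnla had 1 read in each of 2 DMSO libraries and none in the other 4. The AA 2wk libraries were at 0.877, 24.7 and 0 RPKM in fl/fl (9, 254 and 0 reads) and at 38.3, 14.7 and 14.1 RPKM in PTKO cortex. The AA 4wk libraries were at 125, 27.9 and 74.9 in fl/fl and 123, 104 and 87.9 in PTKO cortex. The AA 2wk fl/fl libraries thus ran from no read to a level within reach of the AA 4wk group, while all 3 PTKO libraries were clearly above DMSO. The difference from DMSO in fl/fl cortex was 1.82 ± 0.85 at AA 2wk, which did not pass (adjusted p = 0.0747), and 5.98 ± 0.85 at the later time (adjusted p = 3.17e-05), rank 7 of 13624 genes. In PTKO cortex it was 4.34 ± 0.85 (adjusted p = 0.000620) and 6.66 ± 0.85 (adjusted p = 9.38e-06). Without the fl/fl AA 2wk library numbered 3 the fl/fl difference at AA 2wk was 2.75 and passed (adjusted p = 0.00810). Without number 2, the one library with many reads, it was 0.41 (adjusted p = 0.503).

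Arg1 (chr10:24915221-24927484, minus strand, 8 exons) was the lowest member in every toxin group. It had 0, 1 and 0 reads in fl/fl and 3, 1 and 0 reads in PTKO libraries after DMSO. With 2 weeks of toxin it stood at 0.316, 1.495 and 0.163 RPKM in fl/fl and 2.06, 2.50 and 0.982 RPKM in PTKO cortex. At the later time it was 0.922, 0.498 and 0.222 in fl/fl (23, 13 and 6 reads) and 2.31, 10.4 and 2.53 in PTKO cortex (60, 202 and 41 reads). In fl/fl cortex the difference from DMSO was 0.63 ± 0.39 with 2 weeks of toxin (adjusted p = 0.177) and 0.59 ± 0.39 at the later time (adjusted p = 0.200), neither of which passed, although each toxin library lay above each DMSO library. With a smaller pseudocount of 0.1 the differences were 2.32 and 2.38 and both passed (adjusted p = 0.00813 and 0.00638). In a test on the recovered reads they were 4.07 and 4.08 and passed as well (adjusted p = 0.0265 and 0.0232), so their size depends on the scale used for these low counts. In PTKO cortex the difference was 1.40 ± 0.39 (adjusted p = 0.00702) and 2.28 ± 0.39 (adjusted p = 0.000123).

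**Figure D2:**
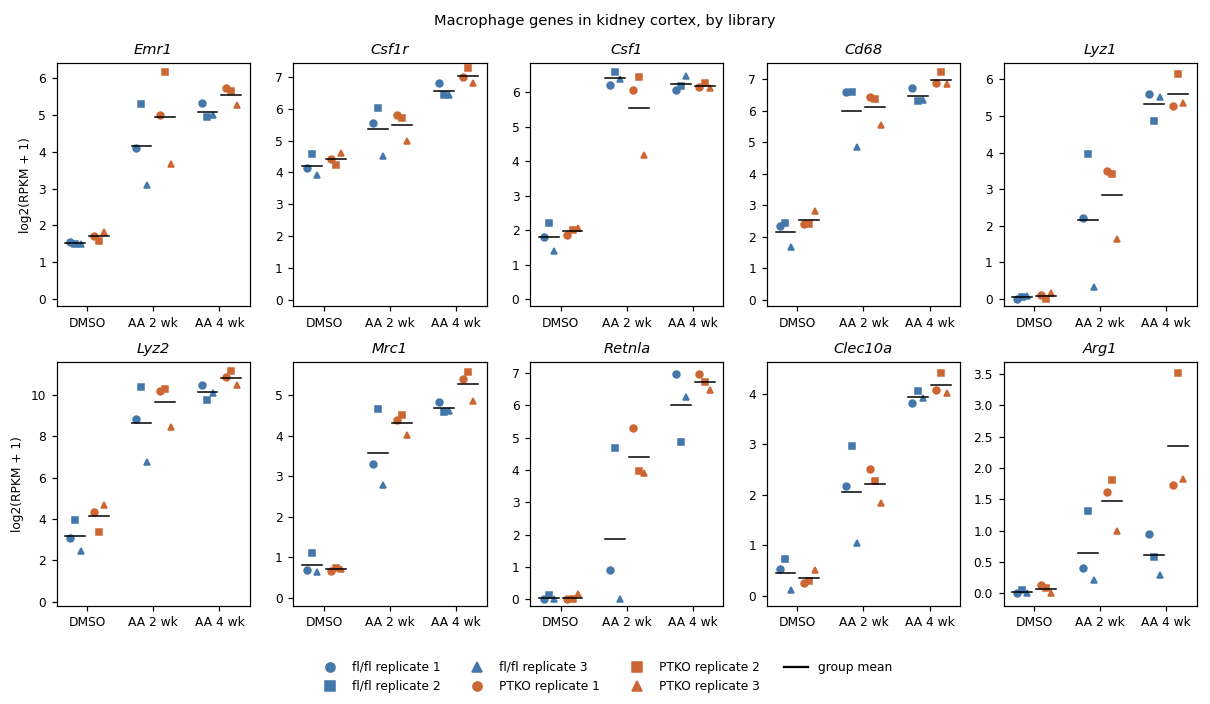
Level of each member (y axis, log2(RPKM + 1)) in each of the 18 libraries, by treatment, genotype (colour) and library number (shape); lines are group means. Within the AA 2wk groups most members are lowest in the libraries numbered 3, Csf1 in fl/fl cortex is not, and Arg1 is highest in the PTKO AA 4wk library numbered 2.

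Fewer members differed between AA 2wk and AA 4wk. Emr1, Csf1, Cd68, Lyz2, Mrc1, Retnla and Arg1 passed in neither genotype as reported. In PTKO cortex 3 of 10 members rose, against 2.6% of all genes: Csf1r by 1.52 ± 0.31 (adjusted p = 0.0213), Lyz1 by 2.74 ± 0.66 (adjusted p = 0.0342) and Clec10a by 1.96 ± 0.34 (adjusted p = 0.0138). Same-numbered PTKO libraries of the 2 times deviated together weakly (correlation of deviations over genes 0.102 to 0.243). With library numbers as a block over all groups Mrc1 passed too, at 0.97 (adjusted p = 0.0423). In fl/fl cortex 1 of 10 rose, against 0.0661% of all genes, which was Clec10a, by 1.87 ± 0.34 (adjusted p = 0.0487). That call was lost in 21 of 30 alternative settings, among them leaving out any 1 of most libraries, DMSO libraries included. The largest fl/fl difference of any gene was that of Retnla, 4.16 ± 0.85 (95% interval 2.35 to 5.98, adjusted p = 0.0792), and that of Lyz1, 3.16 ± 0.66 (adjusted p = 0.0840), ranked 3. Neither passed in a comparison that called 17 genes in all. With library numbers as a block within the AA 2wk groups, where same-numbered libraries deviated together, 3 members rose in fl/fl cortex: Emr1 (0.91, adjusted p = 0.0167), Lyz1 (2.81, adjusted p = 0.00641) and Clec10a.

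These calls depended on single libraries. Without the fl/fl AA 2wk library numbered 2, Csf1r, Lyz1, Mrc1, Retnla and Clec10a passed in fl/fl cortex, and the same 5 passed in PTKO cortex. Without the PTKO AA 2wk library numbered 3, Lyz1, Retnla and Clec10a passed in fl/fl cortex and only Clec10a in PTKO cortex. Without the fl/fl AA 2wk library numbered 3, none passed in fl/fl and 5 in PTKO cortex. Without the PTKO AA 4wk library numbered 2 or 3, none passed in PTKO cortex. In fl/fl cortex Csf1r, Lyz1, Retnla and Clec10a were higher in every AA 4wk than in any AA 2wk library, 4 of 10 members against 10.4% of all genes. In PTKO cortex the same held for Csf1r, Cd68, Lyz1, Lyz2, Mrc1, Retnla and Clec10a, 7 of 10 members against 21.1% of all genes.

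**Figure D3:**
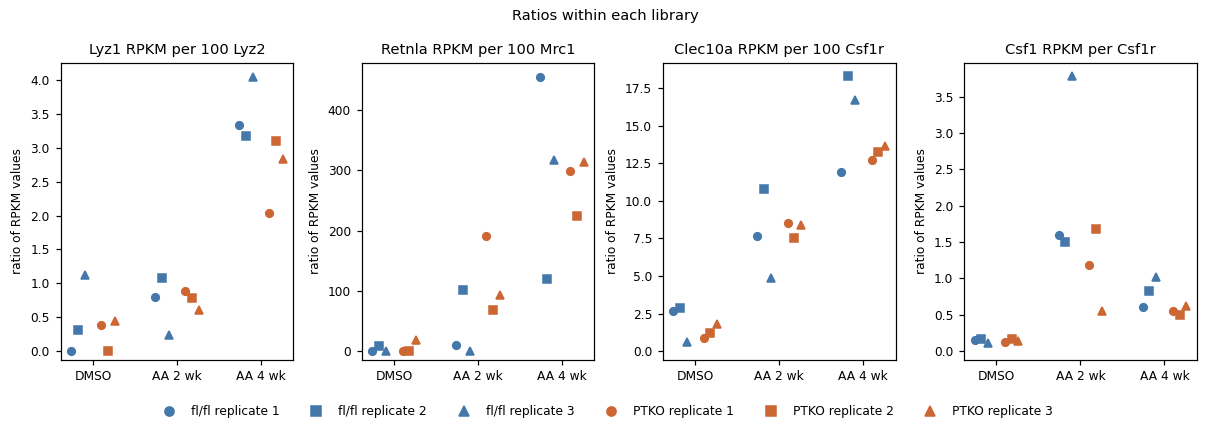
Ratios of RPKM values within each library (y axes start at 0) for 4 pairs of members, by treatment, genotype (colour) and library number (shape). Lyz1 per 100 Lyz2 is 0.241 to 1.07 in AA 2wk and 2.05 to 4.05 in AA 4wk libraries, and Csf1 per Csf1r is highest, at 3.78, in the fl/fl AA 2wk library numbered 3.

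No member differed between PTKO and fl/fl cortex at an adjusted p under 0.05. After DMSO 0 of 10 members differed, against 0.0367% of all genes, and none had an unadjusted p under 0.05. At AA 2wk and at AA 4wk it was again 0 of 10, against 0.00734% of all genes at each time, and in each 1 member had an unadjusted p under 0.05. The test on recovered reads also called 0 members at each treatment. The point estimates leaned to PTKO: the median member difference was 0.11 after DMSO and 0.70 and 0.50 at the successive toxin times, against 0.01, -0.06 and 0.03 for all genes. For the 5 members that also reached the level for testing after DMSO, the medians were 0.21, 0.13 and 0.46, so the lean at AA 2wk was small among these. Some leukocyte lists leaned the same way at AA 4wk. Medians were 0.54 for the other macrophage markers, 0.47 for the pan-leukocyte genes and 0.48 for the T cell markers. The B and plasma cell markers leaned the other way, at -0.88, and the proximal tubule markers were at -0.72. Their part in the members' values was not tested. The 95% intervals were wide. For Emr1 they ran from -0.90 to 1.29 after DMSO, from -0.32 to 1.88 with 2 weeks of toxin and from -0.64 to 1.56 at the later time.

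At AA 2wk the member with an unadjusted p under 0.05 was Retnla, at 2.53 ± 0.85 (95% interval 0.72 to 4.35, unadjusted p = 0.00955, adjusted p = 0.531). Its groups overlapped, since fl/fl number 2 (24.7 RPKM) was above PTKO numbers 2 and 3. Without that fl/fl library the difference was 3.94 and passed (adjusted p = 0.00269), as did Mrc1 at 1.26 (adjusted p = 0.0174). Without fl/fl number 3, which had no Retnla read, the Retnla difference was 1.60 (adjusted p = 0.730). Csf1 leaned the other way at -0.85 ± 0.40 (95% interval -1.69 to 0.0013, adjusted p = 0.743), with the PTKO library numbered 3 at 17.1 RPKM, and was -0.15 without that library (adjusted p = 0.852). No member had every PTKO library above every fl/fl library, against 1.95% of all genes. With the block within AA 2wk, Emr1 passed at 0.78 ± 0.13 (adjusted p = 0.0177): it was higher in PTKO than in the same-numbered fl/fl library in 3 of 3 pairs. Arg1 was also higher in 3 of 3 pairs (0.83, adjusted p = 0.372 with the block) and Csf1 lower in 3 of 3 (-0.85, adjusted p = 0.301), while the other 7 members differed in sign between pairs.

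At AA 4wk the member with an unadjusted p under 0.05 was Arg1, at 1.75 ± 0.39 (95% interval 0.91 to 2.59, unadjusted p = 0.000496, adjusted p = 0.812). The 3 PTKO libraries, at 2.31 to 10.4 RPKM, lay above the 3 fl/fl libraries, at 0.222 to 0.922 RPKM. Arg1 reached 1 RPKM in 3 PTKO libraries at AA 4wk, and at AA 2wk in 2 PTKO libraries and 1 fl/fl library. Arg1 thus entered the test mainly through PTKO libraries, a filter that favours higher values there. It passed with the block within AA 2wk (adjusted p = 0.0367), with sample quality weights (0.0190) and without both AA 2wk libraries numbered 3 (0.0454). Over all alternatives its adjusted p ran from 0.0190 to 1. Without the PTKO library numbered 2 the difference was 1.17 (adjusted p = 1). That library, at 10.4 RPKM, also had the highest summed neutrophil markers (18.4 RPKM, against 8.64 and 10.3 in the others) and adipocyte markers (119 RPKM, against 54.1 and 66.7) of its group. Its other macrophage markers (3667 RPKM, against 3125 and 2946) and pan-leukocyte genes (846 RPKM, against 794 and 709) were highest too, and its proximal tubule markers lowest (815 RPKM, against 1407 and 1306). The part of these in the value was not tested. Csf1r, Cd68, Mrc1 and Arg1 had every PTKO library above every fl/fl library at AA 4wk, 4 of 10 members against 14.1% of all genes. That count includes Arg1, with the limit of the filter just given. Summed levels of several marker lists were separated between the same groups, in both directions. Pan-leukocyte genes were at 709 to 846 RPKM in PTKO and 475 to 654 in fl/fl libraries, other macrophage markers at 2946 to 3667 and 1867 to 2673, and T cell markers at 110 to 120 and 73.8 to 84.7. Proximal tubule markers were lower in PTKO cortex, at 815 to 1407 against 1882 to 2306 RPKM. B and plasma cell markers were lower there too, at 31.8 to 42.7 against 75.3 to 149.9 RPKM. Their part in the separation of the 4 members was not tested. After DMSO this held for Emr1 alone, against 7.88% of all genes.

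**Figure D4:**
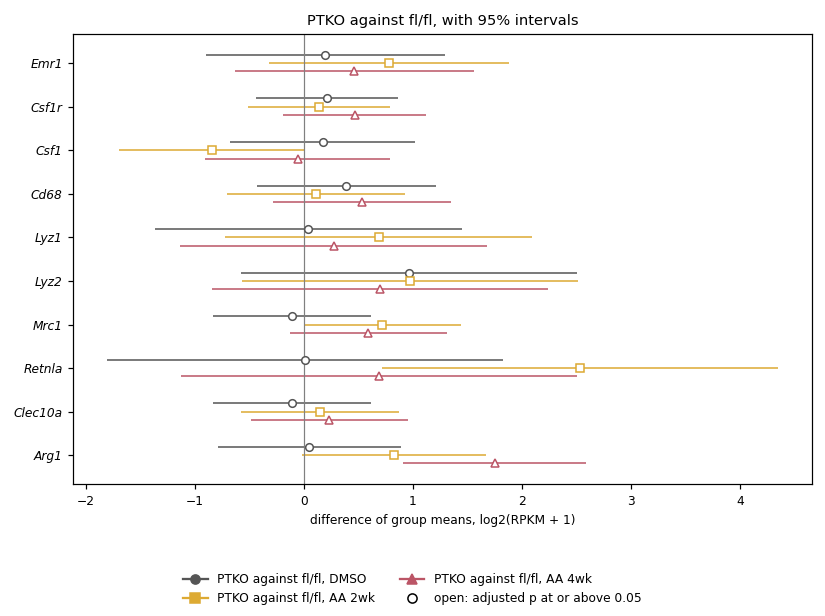
Difference of each member between PTKO and fl/fl cortex (x axis, log2(RPKM + 1); bars are 95% intervals) at each treatment. All points are open, since none passed an adjusted p of 0.05; Retnla at AA 2wk (2.53) and Arg1 at AA 4wk (1.75) lie farthest from 0.

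Whether the toxin response itself differed between genotypes was tested as an interaction. For the AA 2wk response 0 of 10 members differed, against 0.0147% of all genes, and none had an unadjusted p under 0.05. For the AA 4wk response it was 0 of 10, against 0.00734% of all genes, with Arg1 alone under an unadjusted p of 0.05 (1.70 ± 0.56, unadjusted p = 0.00826, adjusted p = 0.934). Arg1 entered the test mainly through PTKO libraries, which limits this value too. For the change from AA 2wk to AA 4wk it was 0 of 10, against 0% of all genes, and none had an unadjusted p under 0.05. The test on recovered reads called 0 members in all 3. That Retnla and Arg1 passed against DMSO at AA 2wk only in PTKO cortex was therefore not shown to differ between genotypes: the differences were 2.52 (95% interval -0.05 to 5.09) for Retnla and 0.78 (-0.41 to 1.96) for Arg1.

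RPKM allows levels of different genes to be compared per gene length. Between DMSO and AA 4wk most members kept their order in fl/fl cortex, while Lyz2 and Csf1r exchanged places and Retnla and Lyz1 moved up. After DMSO the mean RPKM in fl/fl cortex was 17.8 ± 4.39 (SD, n = 3) for Csf1r and 8.76 ± 5.12 for Lyz2, with every other member under 4. Those 2 overlapped, as did Cd68 with Csf1 and Csf1 with Emr1. At AA 4wk Lyz2 led at 1133 ± 276, above all others without overlap. Csf1r (93.9 ± 14.2), Cd68 (87.6 ± 14.4), Retnla (75.9 ± 48.6) and Csf1 (75.1 ± 10.9) came next, each overlapping its neighbour among these. Lyz1 (40.0 ± 10.6) and Emr1 (33.2 ± 5.21) overlapped, followed without overlap by Mrc1 (24.8 ± 2.36), Clec10a (14.4 ± 1.31) and Arg1 (0.547 ± 0.353). In PTKO cortex at AA 4wk the order was the same from Lyz2 (1832) to Arg1 (5.08 ± 4.60). Retnla went from the 3 lowest members after DMSO to the fourth place at AA 4wk.

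Most other tested macrophage markers rose too. Of 23 other macrophage markers 20 were tested, of which 19 were higher and 1 lower at AA 4wk against DMSO in fl/fl cortex (median 3.72). The largest were the complement genes C1qc (14.8 to 380 mean RPKM, difference 4.60), C1qb (4.42) and C1qa (4.41), which macrophages secrete, and Ms4a7 (4.13). The exception was Mertk, the receptor for engulfing dying cells, at -0.60. The markers Timd4, Vsig4 and Marco did not reach the level for testing. Of 8 myeloid transcription factors 6 were higher and 1 lower: Spi1, which encodes PU.1, rose by 3.50, Runx1 by 2.45 and Irf8 by 1.97, while Nr1h3 fell by 0.60. The lists were chosen with results of these data known, so their counts are a description. Over all genes 51.9% were called higher at AA 4wk in fl/fl and 55% in PTKO cortex. Those shares are the background of every list count here and below at that time.

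Most tested genes of both alternative and classical activation rose. Of 14 other alternative activation genes 12 were tested and 11 were higher at AA 4wk in fl/fl cortex (median 1.72), with the lectin Mgl2 at 4.27, the chemokines Ccl17 at 3.93 and Ccl22 at 3.67, and the transcription factor Egr2 at 2.67. Of 17 classical activation genes 15 were tested and 14 were higher (median 1.77), led by Socs3 at 4.37, the chemokines Cxcl9 at 4.03 and Cxcl10 at 3.57, and Il1b at 2.44. In PTKO cortex the counts at AA 4wk were 11 of 12 (median 1.74) and 14 of 15 (median 2.03). Chil3, another common marker of alternative activation in mice, was at 0.134 mean RPKM at AA 4wk in fl/fl cortex and did not pass there (difference 0.16). It was higher than after DMSO at AA 2wk in both genotypes (0.62 in fl/fl, 1.58 in PTKO cortex), and in PTKO cortex it fell by 1.32 from there to AA 4wk.

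Genes of cytokines, colony-stimulating factors, their receptors and arginine handling were measured too. Their link to the members was not tested. Of 10 genes of the type 2 cytokines and their receptors 6 were tested, and all 6 were higher at AA 4wk in fl/fl cortex: the shared receptor chain Il2rg (3.33), the alarmin Il33 (2.39), Il4ra (1.87), the Il33 receptor Il1rl1 (1.29), Stat6 and Il13ra1. The cytokines Il4 and Il13 were not tested, at a mean of at most 0.0454 and 0.0934 RPKM in any group, nor were Il25 and Tslp. Of 7 other colony-stimulating factors and receptors 5 were tested and 5 were higher, among them Csf2rb (3.12), Csf2ra (2.63), Csf2rb2 (2.57) and Csf3r (2.05). Il34, the second ligand of Csf1r, went from 14.7 to 33.0 mean RPKM (1.11) and was thus more abundant than Csf1 after DMSO (2.61) but less so at AA 4wk (75.1). Of 9 arginine genes 8 were tested, 6 were higher and 1 lower. Their median was 0.74, against 0.35 for all genes, of which 51.9% were called higher. The arginase Arg2 rose by 1.97, the transporters Slc7a2 by 1.90 and Slc7a1 by 1.85, and Odc1, which turns ornithine into polyamines, fell by 1.22. Arg2 stood at a mean of 11.2 RPKM at AA 4wk in fl/fl cortex, where Arg1 stood at 0.547.

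**Figure D5:**
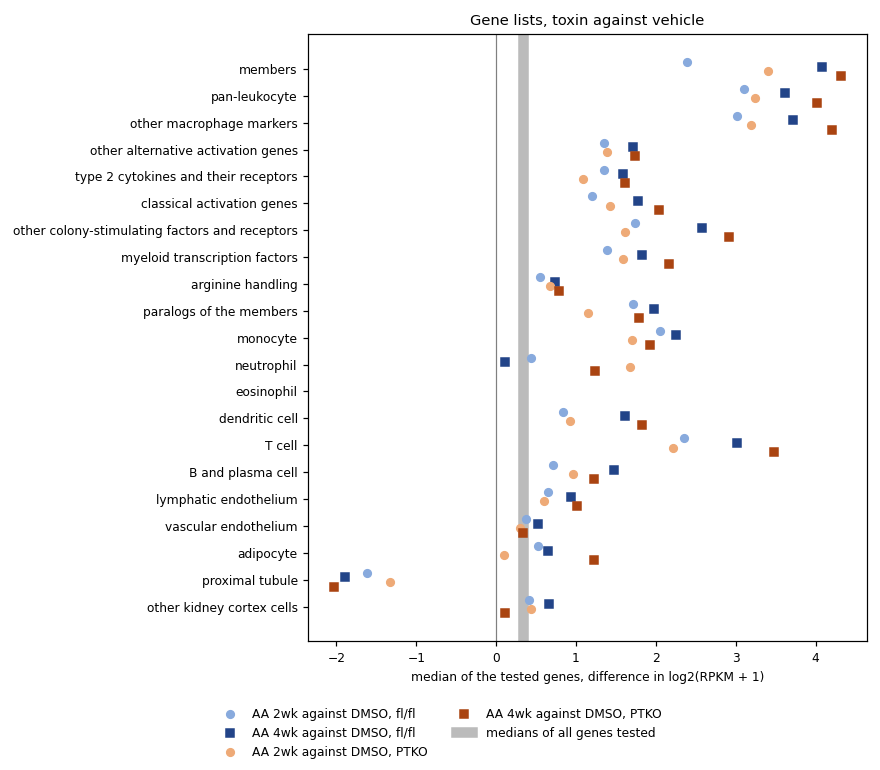
Median difference between toxin and vehicle (x axis, log2(RPKM + 1)) over the tested genes of each list, in fl/fl and PTKO cortex at both toxin times; the grey band spans the medians of all genes tested. The members, the pan-leukocyte genes and the other macrophage markers lie farthest right, and the proximal tubule genes lie left of 0; the eosinophil list had no tested gene.

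Paralogs of the members were compared, since reads can be shared among copies. Of 9 paralogs 5 were tested, and 5 were higher at AA 4wk in fl/fl cortex: Mgl2, the neighbour of Clec10a, Mrc2 (2.08), Arg2, Cd97 (now Adgre5) and Emr4 (now Adgre4). The Retnla relatives were low, with Retnlb listed at 0 in every group mean and Retnlg at a mean of 0.280 and Retn at 0.102 RPKM at AA 4wk in fl/fl cortex.

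Markers of other immune cells rose as well. All 6 pan-leukocyte genes were higher at both times in both genotypes, and their summed level went from 23.4 to 39.1 RPKM after DMSO to 475 to 654 RPKM at AA 4wk in fl/fl cortex. All 6 monocyte markers were higher, from 13.7 to 20.3 RPKM summed to 126 to 178, with Ccr2 at 3.60 and Plac8 at 2.83. All 8 T cell markers were higher, from 2.194 to 3.472 RPKM summed to 73.8 to 84.7, with Cd4 at 3.55. Of 9 dendritic cell markers 8 were tested and 8 were higher (sums of 4.05 to 7.55 after DMSO and 35.8 to 55.5 RPKM at AA 4wk), with Itgax at 3.08 and Ccr7 at 2.64. Of 10 neutrophil markers 3 were tested and 1 was higher, Csf3r, with sums of 5.16 to 7.66 RPKM against 1.11 to 2.95 after DMSO. In PTKO cortex at AA 2wk all 3 tested were higher, and the library numbered 2, which had the highest Emr1 of all (71.2 RPKM), had a neutrophil sum of 48.5 RPKM against 6.65 and 8.10 in the others. Of the untested genes on that list, Mpo and Elane were at a mean of at most 0.0305 and 0.0504 RPKM in any group. No eosinophil marker was tested, and their sum was at most 3.29 RPKM. The shares of these cell types in the values of Csf1r, Cd68, Lyz2, Retnla and Arg1, which other leukocytes can also express, were not tested.

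Most proximal tubule markers fell. Of 8 proximal tubule markers 7 were lower at AA 4wk in fl/fl cortex and 8 in PTKO cortex, with Slc22a6 at -3.41, Lrp2 at -2.60, Miox at -2.14 and Slc13a3 at -2.05 in fl/fl cortex. Their summed level was 6010 to 6899 RPKM after DMSO in fl/fl cortex, 1540 to 3416 with 2 weeks of toxin and 1882 to 2306 at the later time, when it was 815 to 1407 in PTKO cortex. RPKM is scaled to the library, and the part of this loss in the values of other genes was not tested. At AA 4wk in fl/fl cortex, where 51.9% of all genes were called higher, 3 of 6 vascular endothelium genes were higher and 1 lower, and 3 of 7 genes of other cortex cells were higher (median 0.66). In PTKO cortex at that time the vascular counts were again 3 and 1, and 0 of 7 genes of other cortex cells passed (median 0.11, against 0.40 for all genes). In fl/fl cortex at AA 4wk 3 of 4 tested lymphatic endothelium genes were higher, of which Lyve1 (0.91) is also made by macrophages. All 4 tested B and plasma cell genes were higher there, led by Igj. Of 2 tested adipocyte genes 0 passed there, while 1, Fabp4, was higher at AA 2wk in fl/fl and at AA 4wk in PTKO cortex.

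The genes whose levels ran most alike over the 18 libraries differed between members. By Pearson's r on log2(RPKM + 1), Emr1 ran closest to Clec4a1, Clec4a2 and C3ar1 (r of 0.994, 0.994 and 0.994), Cd68 to Laptm5, Tmem173 and Gnai2 (0.997, 0.996 and 0.995), Lyz2 to Fcer1g, Arhgdib and C1qc (0.995 for each) and Mrc1 to Fcgr3, C1qb and C1qc (0.994, 0.992 and 0.992). Csf1 ran closest to the genes S100a6, Klf5 and Itga3 (0.996, 0.995 and 0.995). Csf1r ran closest to Ttyh3, Csf3r and Cd22 (0.990, 0.990 and 0.988). Lyz1 and Clec10a were in each other's closest 3 (0.986), Lyz1 also with Csf3r and Cd22 (0.985 for each) and Clec10a with Slc9a9 and Siglec1 (0.988 and 0.986). Retnla ran closest to P2rx4, Emr4 and a gene whose name reads as a date, 3-Sep (0.971, 0.970 and 0.968). Arg1 ran closest to Gabrp, Clec4e and Cxcl5 (0.927, 0.917 and 0.914). These values describe libraries that share the toxin groups.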

How the data were processed

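RNA of 18 kidney cortex libraries was prepared with a stranded total RNA kit, per the labels' protocols. Per the submitters' processing notes, bcl2fastq 2.19, kallisto and build mm10 were used, with no role or version given beyond these. The deposited table holds RPKM values per gene, which the authors computed. Every value of the 17579 genes above 0 in at least 6 libraries was a whole number of reads (100% within 0.02 reads), giving 10.98M to 21.92M reads a library. RPKM + 1 was taken as log2 and all 6 groups were fitted in 1 model with limma 3.58.1 (R 4.3.3; trend and robust empirical Bayes). Genes with at least 1 RPKM in 3 libraries (13624) were tested two-sided, with Benjamini-Hochberg adjustment and a threshold of 0.05. A difference of log2(RPKM + 1) understates the change of low genes. The 12 comparisons were toxin and time within genotype, genotype within treatment, and their interactions. The script was tested on simulated data.

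The members and lists were chosen with earlier results of these data known. Besides the members, the text names up to 4 called genes of each list with the largest AA 4wk difference in fl/fl cortex, and the 3 genes most alike each member by Pearson's r. Some genes that meet this rule are not reported here. No list gene was called between genotypes. Genes named outside this rule (untested list genes, Mertk, Nr1h3, Chil3, Il34, Stat6, Il13ra1, Emr4, the Retnla relatives, Mpo and Elane) were chosen after their values were seen. Listed symbols absent from the table were sought under older RefSeq names (4 found). Same-numbered libraries deviated together within the AA 2wk groups (correlation of deviations over genes 0.431 to 0.663 in the 3 pairs). Within the DMSO (0.071 to 0.201) and AA 4wk groups (0.057 to 0.222) the correlations were positive but lower. Those between PTKO at AA 2wk and PTKO at AA 4wk (0.102 to 0.243) were in a similar low range. The reported tests used no pairing. Library numbers entered only in alternative fits, as a block within the AA 2wk groups or over all groups. Where such a pairing would come from is not stated in any source used here. Fabp4 was also chosen after its values were seen. Alternatives covered the pseudocount, filter, scaling, weights, block, a test on recovered reads (voom), the groups fitted and each library left out.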

Additional observations from a re-analysis of the deposited data

How the results depend on the processing

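Of 120 values (10 members in 12 comparisons) under 30 alternatives, 3516 of 3600 kept their side of the threshold, 42 lost a call, 42 gained one and 0 called values reversed. Of the 40 values against DMSO 4 changed a call in some alternative (Lyz1, Retnla and Arg1 at AA 2wk and Arg1 at AA 4wk, all in fl/fl cortex).

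The number of members called between AA 2wk and AA 4wk in fl/fl cortex, 1 as reported, was 0 with a pseudocount of 0.1 or 0.5, with no filter, with voom on recovered reads and with only the groups compared. It was 2 after quantile normalization or without both AA 2wk libraries numbered 3, 3 with the replicate block within AA 2wk and 7 with sample quality weights. Leaving out 1 library at a time gave 0 to 5. In PTKO cortex it was 3 as reported, 1 with a pseudocount of 0.1, 0 with only the groups compared, and 0 to 5 with 1 library left out. Between genotypes at AA 2wk it was 0 as reported, 6 with sample quality weights, 1 with the replicate block within AA 2wk, and 0 to 2 with 1 library left out. Between genotypes at AA 4wk it was 0 as reported and 1 (Arg1) with sample quality weights, with that block or without both AA 2wk libraries numbered 3. The quality weights stopped before they converged, so their calls are weak. The replicate block over all groups added Mrc1 between the toxin times in PTKO cortex (adjusted p = 0.0423), and the blocks changed no other member's call than those named here and in the report. The cause of these shifts was not tested.

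Over all genes, median-of-ratios scaling moved the share of higher calls at AA 2wk from 80.5% to 50.2% in fl/fl and from 76.3% to 49.5% in PTKO cortex, and at AA 4wk from 78.4% to 49.3% and from 76.1% to 49.3%. Quantile normalization gave 44.8%, 46.7%, 43.8% and 44.5%. The median of all genes moved from 0.33, 0.29, 0.35 and 0.40 to -0.01, 0.00, -0.01 and 0.00 under the first. Of all genes, sample quality weights called 1626 between genotypes at AA 2wk (1 as reported) and 619 at AA 4wk (1), 3575 between the times in fl/fl (17) and 1939 in PTKO cortex (567), where only the groups compared gave 0 in both. At 0 to 3 reads in DMSO libraries, Lyz1, Retnla and Arg1 had no measurable base level.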
